A study of Caenorhabditis elegans with 54 samples.

Results

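The genes described here encode the subunits of the 26S proteasome of Caenorhabditis elegans, taken as every row of the count table with a symbol of the families pas, pbs, rpt or rpn followed by a number. The rule found 33 of the 19909 genes in the table. Of these, 32 are somatic subunits, with 7 in the alpha ring and 7 in the beta ring of the core particle, 10 in the base and 8 in the lid of the regulatory particle. The other one, rpn-6.2, a paralogue of the lid gene rpn-6.1, is described apart. RNA was sequenced from whole worms of the daf-2(e1370) strain, which carries a temperature-sensitive mutation of the insulin receptor gene and enters the dauer diapause at raised temperature, and controls carry that mutation too. All dauers were thus made through daf-2, and not through starvation or crowding. The 18 conditions had 3 libraries each, 54 in all, and per the labels these are biological replicates of many pooled worms. The 5 conditions with UV were irradiated on dauer day 1 (D1) and collected 6 h and 24 h after exit induction from D1, or held to dauer day 4 (D4) and collected 0 h, 6 h and 24 h after exit induction. The 13 conditions without UV were dauers of D1, D4, D15 and D30 at 0 h, 6 h and 24 h after exit induction, and non-dauer L3 larvae. Exit was induced by washing the dauers, moving them to fresh OP50 food and lowering the temperature, which cannot be told apart here. By the study's methods, strains were kept at the lower temperature and raised only for dauer, so temperature and stage cannot be told apart in comparisons with L3 larvae.

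The 26S proteasome degrades proteins that carry ubiquitin chains. The alpha ring subunits (pas) gate the entrance to the core particle, and the beta ring subunits (pbs) hold the proteolytic sites, with pbs-1 carrying the caspase-like, pbs-2 the trypsin-like and pbs-5 the chymotrypsin-like activity. In the base, the ATPases (rpt) unfold substrates and push them into the core, rpn-1 and rpn-2 are scaffolds, and rpn-10 and rpn-13 bind ubiquitin. In the lid, rpn-11 removes ubiquitin chains together with its partner rpn-8, and rpn-3, rpn-5, rpn-6.1, rpn-7, rpn-9 and rpn-12 form the scaffold. Because each particle needs its subunits in fixed proportion, their genes are often regulated together, and in worms the transcription factor skn-1 is known to raise them when proteasome function is impaired. Dauer larvae do not feed and live for much longer than reproducing worms.

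Levels are given as CPM, the counts of a gene relative to the total of its library, scaled over all 54 libraries by TMM, which sets libraries on a common scale through genes of middling change. Changes are log2 fold changes from edgeR's quasi-likelihood test, two-sided, with Benjamini-Hochberg adjustment over all genes kept, and a gene is called when its adjusted p is under 0.05. Each comparison was scaled on its own libraries, so its fold change can differ a little from the ratio of the printed levels. Library totals ran from 2449113 to 12952656 estimated counts without UV, and in the D4 libraries with UV from 670302 to 856794 at 0 h and from 1141284 to 4121816 later. The lowest count of a somatic subunit in any library was 32, for pbs-3 in a D4 0 h library with UV. The L3 libraries had TMM factors of 0.742 to 0.771, against 0.906 to 1.15 in all other libraries, so comparisons with L3 depend on the scaling. With library totals in place of TMM, the median change of all genes was 0.38 rather than 0.04 in D1 dauers against L3, and it was -0.32 rather than -0.09 over dauer aging. L3 replicate 3 differed from the other L3 libraries more than any other replicate pair did, with a chi-square per gene of 23.4 to 29.5 against 1.47 to 7.23 in the 52 pairs without it. The summed level of 7 dauer genes was 26394 to 27479 CPM in D1 dauers and 122 to 152 CPM in L3 larvae, as the labels imply. In D4 dauers without UV this sum was far lower than on D1, and RNA of yolk genes was present (values with the UV results below). The same D4 libraries enter the comparisons of dauer days and the exit from D4. The part of these differences in those results was not tested. In such bulk samples, fewer cells of a type and less RNA per cell cannot be told apart.

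On the TMM scale, the summed RNA of the 32 somatic subunits was low in D1 dauers and higher at each later day of diapause. Its highest level was in L3 larvae. The sum was 3365 ± 93.1 CPM in D1 dauers, 3896 ± 31.6 CPM in D4 dauers, 4927 ± 173 CPM in D15 dauers, 5955 ± 111 CPM in D30 dauers and 6192 ± 135 CPM in L3 larvae (SD, n = 3 each). At 24 h of exit the sum was 4268 ± 117 CPM on D1, 3831 ± 49.0 CPM on D4, 3278 ± 126 CPM on D15 and 4055 ± 187 CPM on D30. In the order of the 18 conditions, L3, D30 at 0 h and then D15 at 0 h stood apart without overlap between their libraries, D15 at 0 h overlapped D30 at 6 h, and the lowest 3 (D4 0 h with UV, D1 at 0 h and D15 at 24 h) overlapped one another in that order. Of the 32 subunits, 25 had their highest mean in L3 larvae and 6 in D30 dauers, and rpn-6.1 had its highest in UV-treated D1 worms at 6 h of exit. Under library totals the first place turned, with a sum of 5493 CPM in D30 dauers and 4690 CPM in L3 larvae. Then 14 subunits had their highest mean in L3 larvae and 15 in D30 dauers. On that scale the sum was 4369 CPM in D4 dauers and 4504.5 CPM in D15 dauers. Without the alpha subunit pas-3 it was 4151.4 CPM in D4 dauers and 4122.5 CPM in D15 dauers.

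**Figure D1:**
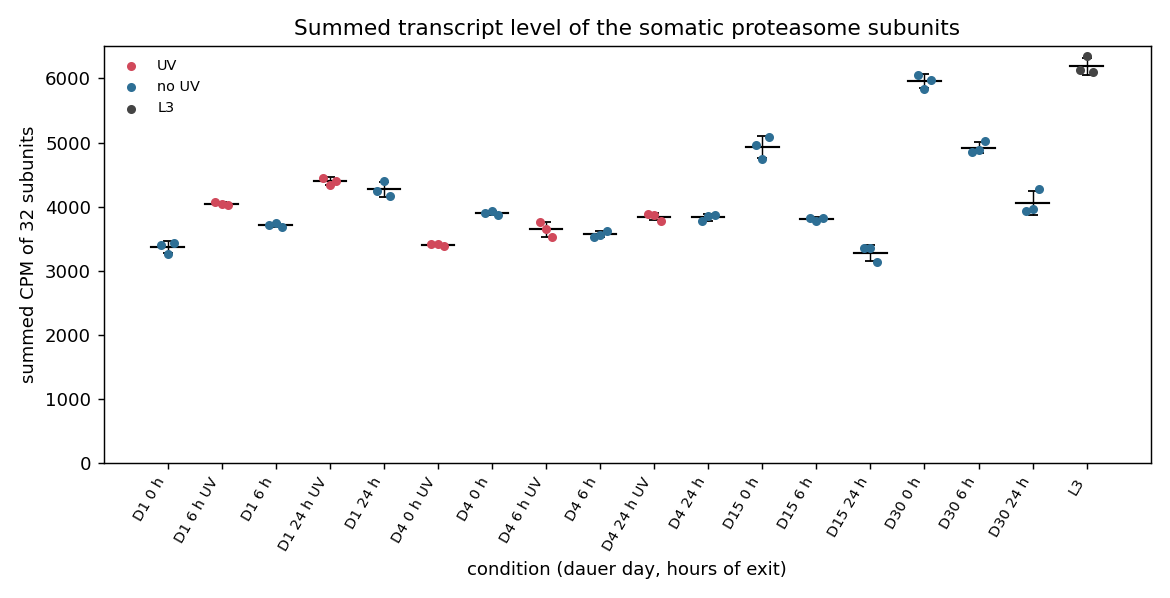
Summed level of the 32 somatic subunits in each library (CPM, TMM scale), by condition. Points are libraries (red with UV, blue without, grey L3), the horizontal bars their means and the error bars 1 SD. D30 dauers at 0 h averaged 5955 CPM, D1 dauers at 0 h 3365 CPM and L3 larvae 6192 CPM.

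D1 dauers had less RNA of nearly every proteasome subunit than L3 larvae. Of 32 subunits tested, 31 were lower in D1 dauers and 0 higher, with a median log2 change of -0.93 against 0.04 over all genes. Among all 13419 genes tested, 36.9% were lower and 38.7% higher. The one subunit not called was rpn-6.1 (WBGene00004462), the lid subunit that clamps the regulatory particle to the core, with 206, 192 and 205 CPM in D1 dauers against 213, 204 and 201 CPM in L3 larvae. The alpha ring was furthest below L3, with a median of -1.18, followed by the beta ring at -0.95, the lid at -0.86 and the base at -0.79, though these groups were not compared by a test.

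The alpha subunit pas-3 (WBGene00003924) had 98.7, 96.9 and 98.1 CPM in D1 dauers against 228, 231 and 219 CPM in L3 larvae (log2 -1.18, SE 0.05, adjusted p = 5.5e-07). The ATPase rpt-5 had 58.7, 54.6 and 52.7 CPM in D1 dauers against 132, 138 and 133 CPM in L3 larvae (log2 -1.25, SE 0.06, adjusted p = 7.7e-07). In neither gene did the groups overlap. In the beta ring, pbs-3 fell (log2 -1.16, SE 0.06, adjusted p = 1.4e-06), and in the lid so did rpn-3 (log2 -1.11, SE 0.06, adjusted p = 1.2e-06). The most negative value was that of pas-4, at -1.48. All 31 calls remained without L3 replicate 3 and under library totals, where the members' median was -0.59 and 1 subunit was called higher.

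Over 29 days of dauer, most subunits rose. Of 33 members tested, 24 rose and 0 fell, with a median log2 change of 0.62 from D1 to D30 on the fitted line, against -0.09 over all genes. Of all 13884 genes, 24.9% rose and 31.8% fell. The rise was broader in the regulatory particle: 9 of 10 base subunits and 6 of 8 lid subunits were called, against 4 of 7 alpha and 5 of 7 beta subunits, and the medians were 0.67 in the base, 1.03 in the lid, 0.38 in the alpha ring and 0.38 in the beta ring. The difference between these groups was not tested. Under library totals 18 members rose and 3 fell (all genes 18.4% rose and 38.3% fell), while the median of all genes moved to -0.32.

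One subunit moved far more than the rest. The level of pas-3, which lies on chromosome I at 5105110 to 5106048 on the minus strand (WBcel235), was 98.7, 96.9 and 98.1 CPM on D1, 194, 199 and 189 CPM on D4, 424, 391 and 438 CPM on D15 and 727, 703 and 718 CPM on D30. No 2 of these groups overlapped, and the slope was 2.63 on the log2 scale (SE 0.28, adjusted p = 9.8e-06). Its share of the summed subunit level was 2.91% on D1, 4.98% on D4, 8.48% on D15 and 12.03% on D30, and 3.65% in L3 larvae. Without pas-3, the ratio of the D30 sum to the D1 sum was 1.604, against 1.77 with it. Set per kilobase of its longest transcript, pas-3 was at 802 CPM per kb in D30 dauers, where the median of the 32 subunits was 119, and at 110 CPM per kb in D1 dauers, where that median was 84.8. The next most abundant per kilobase in D30 dauers was rpn-8, at 310 CPM per kb.

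Next to pas-3, the largest slopes were those of rpn-10, rpn-8, rpn-11 and rpt-5. The ubiquitin receptor rpn-10 (WBGene00004466) had 102, 97.3 and 98.1 CPM on D1, 138, 138 and 130 CPM on D4, 215, 200 and 231 CPM on D15 and 307, 293 and 315 CPM on D30 (slope 1.56 on the log2 scale, SE 0.15, adjusted p = 4.3e-06). The lid subunit rpn-8 had 128, 130 and 131 CPM on D1, 186, 195 and 181 CPM on D4, 319, 305 and 321 CPM on D15 and 392, 373 and 382 CPM on D30, and its slope was 1.48 (SE 0.20, adjusted p = 5.8e-05). In rpn-10 and rpn-8 no 2 of the 4 days overlapped. Its partner, the deubiquitinase rpn-11, averaged 107 CPM on D1, 139 CPM on D4, 212 CPM on D15 and 266 CPM on D30, and its slope was 1.28. The ATPase rpt-5 had 58.7, 54.6 and 52.7 CPM on D1, 79.3, 73.8 and 79.1 CPM on D4, 128, 130 and 124 CPM on D15 and 140, 135 and 145 CPM on D30 (slope 1.28, SE 0.20, adjusted p = 0.00019). The lid scaffold rpn-7 rose (slope 1.01, SE 0.09, adjusted p = 3.4e-06), as did the beta subunit pbs-3 (slope 0.94, SE 0.12, adjusted p = 5.4e-05). In 10 members, among them rpn-10, rpn-7, rpn-11 and pbs-3, an exon overlaps an exon of another protein-coding gene. Part of the counts of these members is uncertain if the counting did not use strand.

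The catalytic beta subunits were not all called, and the difference between their slopes was not tested. The slope of pbs-1 was -0.15 (adjusted p = 0.19), with 87.0, 88.7 and 84.5 CPM in D30 dauers against 95.2, 92.6 and 111 CPM in D1 dauers, and both pbs-2 and pbs-5 were among those that rose. Members with slopes below 0 were pbs-1, pas-7 at -0.20 and pas-1 at -0.22, and none of these passed the test (adjusted p = 0.19, 0.10 and 0.20). The remaining members that did not pass were pas-4, pbs-7, rpn-1, rpn-5, rpn-6.1 and rpn-6.2.

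**Figure D2:**
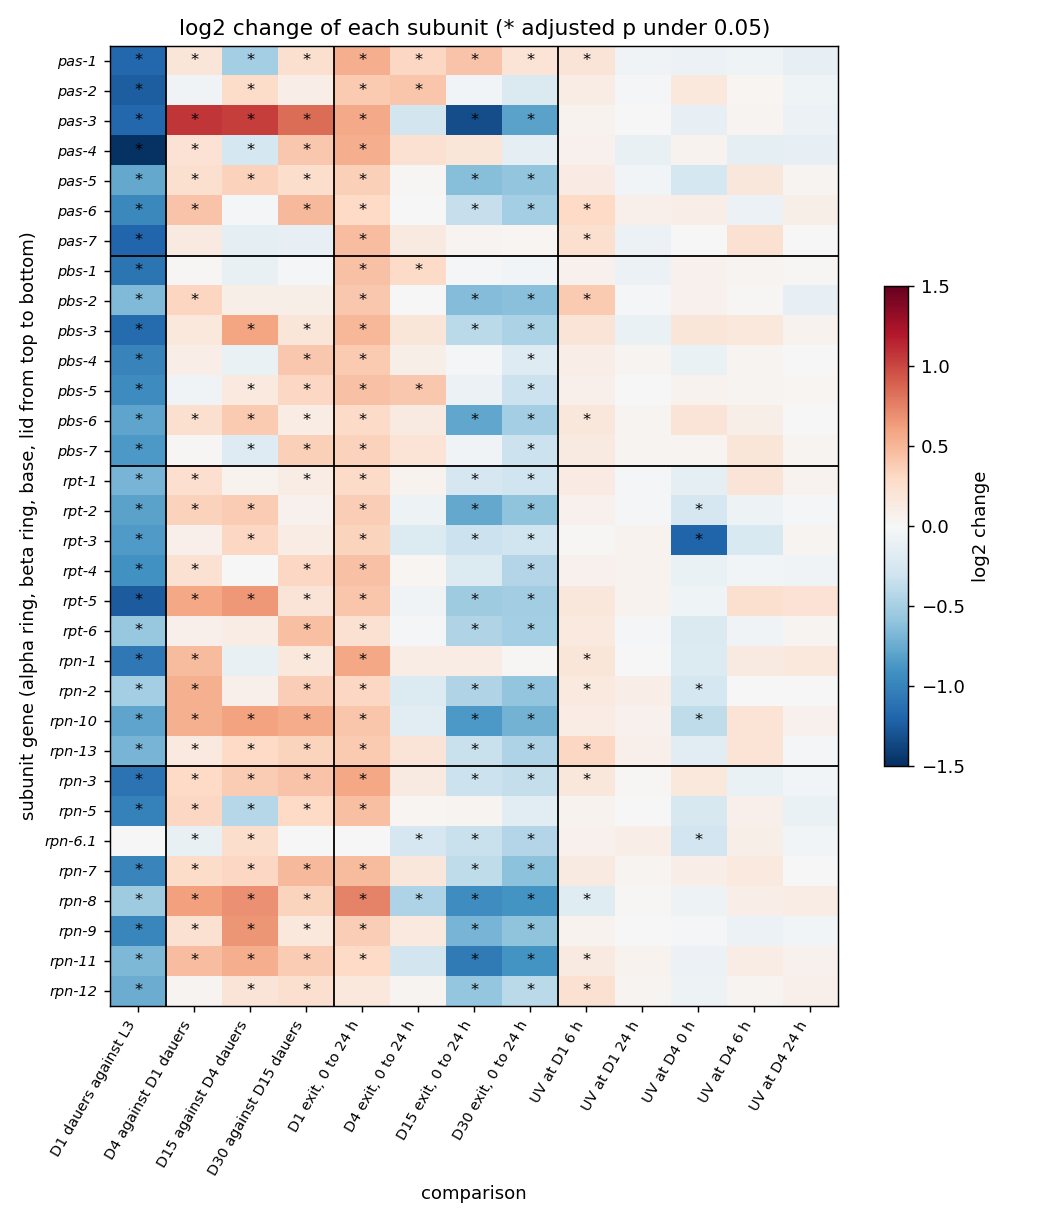
log2 change of each of the 32 somatic subunits (rows, alpha ring, beta ring, base and lid from top to bottom) in 13 comparisons (columns), with red for higher, blue for lower and an asterisk for an adjusted p under 0.05. Nearly the whole first column, D1 dauers against L3, is blue, as are most rows for exit from D15 and D30, while exit from D1 is mostly red.

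Step by step on the TMM scale, most called members were higher in each of the 3 intervals of diapause. In the middle interval, most calls were lower under library totals. In D4 against D1 dauers, 22 of 33 members were higher and 1 lower, where 36% of all genes were higher and 34.1% lower. The higher ones were 21 of the 32 somatic subunits and rpn-6.2, whose uneven estimates are described below. The members with the smallest p by group were pas-3 (log2 1.07), pbs-2 (0.32), the scaffold rpn-2 (0.54) and rpn-8 (0.61), and the lower one was rpn-6.1 (log2 -0.11, SE 0.05, adjusted p = 0.035), whose direction flipped to 0.00015 under library totals. In D15 against D4 dauers, 18 members were higher and 4 lower (all genes 31.6% higher and 34.4% lower). The 4 lower ones were pas-1 (-0.51), pas-4, pbs-7 (-0.19) and rpn-5 (-0.43), beside rises of 1.04 for pas-3, 0.59 for pbs-3, 0.60 for rpn-10 and 0.68 for rpn-8. That split depended on the scaling: under library totals 10 members were higher and 13 lower (all genes 21.9% higher and 45.5% lower), when the median of all genes was -0.24. In D30 against D15 dauers, 25 members were higher and 0 lower (all genes 28.9% higher and 28.8% lower), with the smallest p by group for pas-3 (0.84), pbs-4 (0.41), rpn-10 (0.56) and rpn-7 (0.49).

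The summed level in D30 dauers came to 0.962 of that in L3 larvae, and to 1.17 of it under library totals. Among the 32 subunits, all 3 D30 libraries were above all 3 L3 libraries for pas-3, rpn-2, rpn-10, rpn-8 and rpn-11, and all below for 19. The other 8 overlapped. Over all genes, the D30 libraries were all above for 40.5% and all below for 46.2%. Under library totals 15 subunits were above and 14 below, against 47.6% and 39.6% of all genes. Within the alpha ring, pas-3 was at 727, 703 and 718 CPM in D30 dauers against 228, 231 and 219 CPM in L3 larvae, while pas-1 was at 59.9, 59.3 and 64.6 CPM in D30 dauers against 168, 154 and 152 CPM in L3 larvae.

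The direction of change on dauer exit depended on how long the worms had been in diapause. The 0 h libraries of each day also enter the dauer aging results, so changes in dauer and on exit are not independent. On exit from D1, 30 of 33 members rose over 24 h and 0 fell, with a median of 0.40 on the log2 scale against -0.01 over all genes, of which 30.56% rose and 31.4% fell. Every alpha, beta and base subunit rose, with median changes of 0.46, 0.40 and 0.38, and so did 6 of 8 lid subunits (0.41). The exceptions were rpn-6.1 (-0.01), rpn-12 (0.15) and rpn-6.2. The lid scaffold rpn-3 had 176, 191 and 178 CPM at 24 h against 127, 121 and 127 CPM at 0 h (log2 0.58, SE 0.06, adjusted p = 6.5e-06). The alpha subunit pas-1 had 101, 97.9 and 88.7 CPM at 24 h against 70.4, 69.6 and 66.5 CPM at 0 h (log2 0.55, SE 0.07, adjusted p = 2.2e-05). In both genes the groups did not overlap. Also called were pbs-3 (0.50) and the ATPase rpt-4 (0.44), and among called members rpn-8 had the largest value, 0.74. At 6 h alone, 15 members were above 0 h, where 22.2% of all genes were above and 22.0% below.

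On exit from D4, the count of members called depended on the fit. On the slope over 24 h, 4 of 33 rose and 3 fell, where 22.6% of all genes rose and 21% fell. The catalytic pbs-5 rose to 139, 140 and 143 CPM at 24 h, against 106, 106 and 105 CPM at 0 h (log2 0.40, SE 0.07, adjusted p = 0.0015), and pas-2 rose as well (0.41, adjusted p = 0.0024), with pas-1 and pbs-1. The lid subunit rpn-8 fell to 126, 133 and 130 CPM at 24 h, against 186, 195 and 181 CPM at 0 h (log2 -0.46, SE 0.12, adjusted p = 0.011), and rpn-6.1 and rpn-6.2 were the others that fell. Under library totals 2 rose and 7 fell (all genes 18.8% rose and 30.3% fell), with the median of all genes at -0.18, and without D4 24 h replicate 2 only 4 members were called. With all 54 libraries in 1 fit 13 members were higher and 8 lower (all genes 29.6% and 26.7%). At 24 h against 0 h alone, 9 were higher and 8 lower (all genes 33.1% and 30.1%), and at 6 h alone 2 were higher and 8 lower (all genes 24.4% and 22.5%).

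On exit from D15, 21 members fell and 1 rose (all genes 19.9% fell and 22.4% rose). Those that fell were mostly of the regulatory particle, with 8 of 10 base and 7 of 8 lid subunits, against 3 of 7 alpha and 3 of 7 beta subunits. The medians were -0.39 in the base, -0.48 in the lid, -0.04 in the alpha ring and -0.09 in the beta ring. At 24 h pas-3 had 150, 152 and 158 CPM, against 424, 391 and 438 CPM at 0 h (log2 -1.33, SE 0.10, adjusted p = 4.0e-06). The beta subunit pbs-6 had 62.7, 67.4 and 63.1 CPM at 24 h against 123, 122 and 120 CPM at 0 h (log2 -0.78, SE 0.11, adjusted p = 0.00029). Both genes had lower levels in every 24 h library than in any 0 h library. The ubiquitin receptor rpn-10 fell to 106, 107 and 105 CPM, against 215, 200 and 231 CPM (log2 -0.86, adjusted p = 0.0010), and rpn-12 fell by 0.58 on the log2 scale. The one that rose was pas-1, with 73.1, 68.7 and 66.6 CPM at 24 h against 52.6, 51.7 and 57.5 CPM at 0 h (log2 0.43, SE 0.08, adjusted p = 0.0017).

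On exit from D30, 25 members fell and 1 rose (all genes 22.2% fell and 24.6% rose), with 9 of 10 base, 7 of 8 lid, 6 of 7 beta and 3 of 7 alpha subunits among those that fell. The medians were -0.48 in the base, -0.52 in the lid, -0.32 in the beta ring and -0.21 in the alpha ring. The lid subunit rpn-8 had 392, 373 and 382 CPM at 0 h, 304, 312 and 332 CPM at 6 h and 201, 195 and 212 CPM at 24 h (log2 -0.90, SE 0.05, adjusted p = 1.9e-08). No 2 of its groups overlapped. At 24 h pas-3 had 379, 388 and 441 CPM, against 727, 703 and 718 CPM at 0 h (log2 -0.81, SE 0.05, adjusted p = 7.8e-08). Also lower were rpn-10 (-0.71) and pbs-6 (-0.51), and pas-1 again rose (0.20, adjusted p = 0.020). That call was lost without D30 24 h replicate 3, where 0 members were higher, and with all 54 libraries in 1 fit (0.14, adjusted p = 0.059).

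A test of whether the exit slopes of the 4 days differ called all 33 members, rpn-6.2 included, against 64.2% of all 14975 genes. With no filter, and with the replicate block, 32 members were called. When each library was left out in turn, pas-1 was called in 21 of 36 fits (adjusted p = 0.025 to 0.13). The smallest adjusted p in each group was 6.8e-14 for pas-3, 3.6e-10 for pbs-6, 7.2e-10 for rpn-13 and 4.0e-10 for rpn-7. Of the 32 somatic subunits, pas-1 was called higher in exit from each of the 4 days, with the D30 call lost in the fits named above. Its D4 call was kept in 8 of 9 fits with 1 library left out (highest adjusted p = 0.052).

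**Figure D3:**
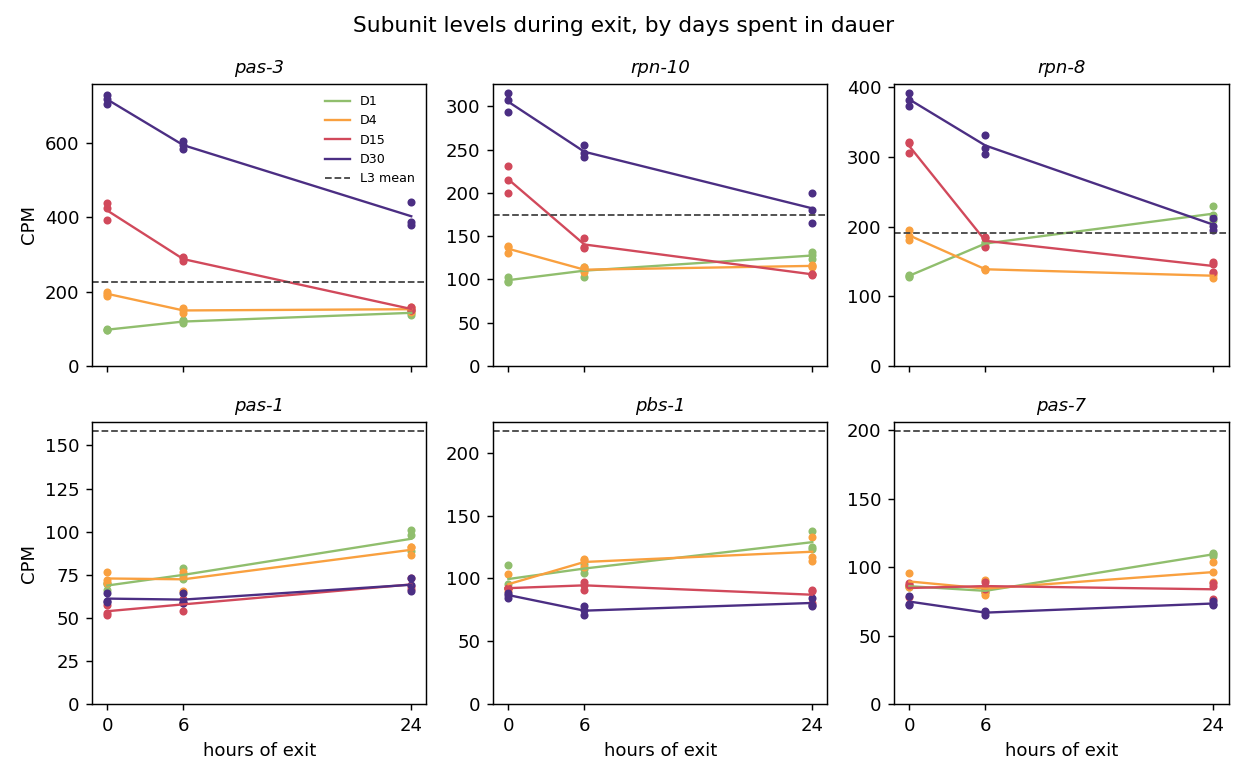
Level of pas-3, rpn-10, rpn-8, pas-1, pbs-1 and pas-7 (CPM, TMM scale) at 0 h, 6 h and 24 h of exit, with 1 line for each dauer day joining the means, points for the libraries and a dashed line at the L3 mean. For rpn-8 the D1 and D30 lines cross: the means were 203 CPM on D30 and 218 CPM on D1 at 24 h, and 382 CPM on D30 and 130 CPM on D1 at 0 h.

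After 24 h of exit, proteasome RNA was below that of L3 larvae on each of the 4 days. Of 33 members, 30 were lower and 2 higher on D1 (all genes 35.7% lower and 33.8% higher), 32 lower and 0 higher on D4 (32.2% and 30.9%), 32 lower and 1 higher on D15 (37.6% and 38.1%), and 29 lower and 2 higher on D30 (39.6% and 40.7%). These 4 comparisons share the L3 libraries. Under library totals the counts were 18 lower and 4 higher on D1, 25 and 0 on D4, 29 and 1 on D15, and 22 and 5 on D30, with the median of all genes between 0.35 and 0.46. Of all 14283 genes, 10476 were then called on D1, 9375 on D4, 11267 on D15 and 11860 on D30. Of these calls, 70.4%, 71.9%, 67.1% and 64.1% were higher, in that order of days. On D1, rpn-8 was above L3, with 210, 217 and 229 CPM at 24 h against 178, 192 and 203 CPM in L3 larvae (log2 0.22, SE 0.06, adjusted p = 0.0049). On D30, pas-3 was above L3, with 379, 388 and 441 CPM at 24 h against 228, 231 and 219 CPM (log2 0.88, SE 0.06, adjusted p = 2.2e-09). The lower members with the smallest p included pas-2 (-0.93 on D1 and -1.25 on D30), pas-4 (-1.05 on D4 and -1.33 on D15), pbs-3 (-0.74 on D1 and -0.90 on D4), pbs-7 (-1.23 on D15), pbs-1 (-1.39 on D30), rpt-5 (-0.85 on D1), rpt-3 (-1.10 on D4) and rpn-9 (-0.66 on D1). The ATPase rpt-4 was at -1.03 on D15 and -0.94 on D30, and the lid scaffold rpn-5 at -0.72 on D4, -1.12 on D15 and -1.11 on D30. Not called on D30 were rpn-10 (0.10) and rpn-8 (0.13). The remaining member called higher on D1, D15 and D30 was rpn-6.2.

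Soon after irradiation of D1 dauers, several subunits were modestly higher. At 6 h of exit, 11 of 33 members were higher and 1 lower with UV, against 14.4% and 13.4% of all genes. The trypsin-like pbs-2 had 136, 125 and 148 CPM with UV against 103, 107 and 100.4 CPM without (log2 0.40, SE 0.06, adjusted p = 0.00075). The alpha subunit pas-6 had 94.2, 97.2 and 87.5 CPM with UV against 75.3, 76.0 and 75.6 CPM without (log2 0.30, SE 0.06, adjusted p = 0.0022). In both the UV libraries were all above those without UV. The ubiquitin receptor rpn-13 (0.31, adjusted p = 0.0030) and rpn-12 (0.23, adjusted p = 0.0097) also rose, as did pas-1, pas-7, pbs-6, rpn-1, rpn-2, rpn-3 and rpn-11. The lid subunit rpn-8 was lower, with 152, 154 and 158 CPM with UV against 173, 177 and 178 CPM without (log2 -0.19, adjusted p = 0.0080). The number called was sensitive. With DESeq2 7 members were called, 6 of them higher, against 2529 of all 18600 genes, with 55.8% of those higher. Under library totals 6 members were called, 5 of them higher, against 3868 of all 13463 genes, with 37.4% of those higher. The count of members was 5 without D1 6 h replicate 3 and 7 without D1 6 h replicate 1. At 24 h of exit from D1, edgeR called 0 members higher and 0 lower, and so did DESeq2, with 1 member at an unadjusted p under 0.05. Of all genes, 5.54% were higher and 6.13% lower at that time. Without UV-treated D1 24 h replicate 2, 1 member was called, namely rpn-6.2, whose uneven estimates are described below.

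In D4 dauers that had been irradiated on D1, the ATPase rpt-3 had the largest change of the somatic subunits. At 0 h, 0 of 33 members were higher and 6 lower with UV, against 18.1% and 14.4% of all genes. The level of rpt-3 (WBGene00004503, chromosome III, 6489793 to 6491282, plus strand) was 49.5, 42.7 and 45.9 CPM with UV against 100.1, 120 and 117 CPM without (log2 -1.20, SE 0.13, adjusted p = 1.4e-05). The groups did not overlap, and the value rests on 119 counts over the UV libraries and 1815 over those without. With any single library left out the log2 change stayed between -1.32 and -1.14, and it was called each time. The other somatic members called lower changed by less, namely rpn-10 (-0.38, adjusted p = 0.0071), rpn-6.1 (-0.29, adjusted p = 0.030), rpn-2 (-0.26, adjusted p = 0.027), and rpt-2 (-0.25, adjusted p = 0.045), and rpn-6.2 was the remaining call. The other 4 ATPases did not pass the test. When each of the 6 libraries was left out in turn, rpn-10 was called in 6 fits, rpn-2 in 5, rpn-6.1 in 4 and rpt-2 in 2. With all 54 libraries in 1 fit, 10 members were called lower, against 15.8% of all genes.

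At 6 h of exit from D4, rpt-3 averaged 74.9 ± 4.6 CPM with UV and 88.4 ± 1.7 CPM without (SD, n = 3 each). At 24 h the averages were 94.8 ± 16.9 CPM with UV and 92.8 ± 10.1 CPM without. At these times edgeR called 0 of 32 members, and so did DESeq2, with 4 members at 6 h and 2 at 24 h at an unadjusted p under 0.05. Of all genes, 0.936% were higher and 0.441% lower at 6 h, and 0.126% higher and 0.00838% lower at 24 h. The UV effect differed between the 3 times for 6 members, against 22.8% of all genes, and for rpt-3 the adjusted p was 5.5e-05. The others were pas-5 (0.010), rpn-6.1 (0.018), rpn-2, rpn-10 and rpn-6.2. In D1 worms rpt-3 averaged 136 CPM with UV and 134 CPM without at 6 h, and 148 CPM with UV and 141 CPM without at 24 h. The D4 0 h groups differed in other ways too: the summed level of 8 germline genes was 262 to 282 CPM with UV and 523 to 535 CPM without, that of 6 yolk genes 0 to 4.83 CPM with UV and 507 to 2003 CPM without, and that of 7 dauer genes 2701 to 3035 CPM with UV and 1530 to 1643 CPM without. Of the 6 yolk genes, 3 were at 0 in all UV libraries. The part of these differences, and of the lower depth, in the results for rpt-3 was not tested.

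**Figure D4:**
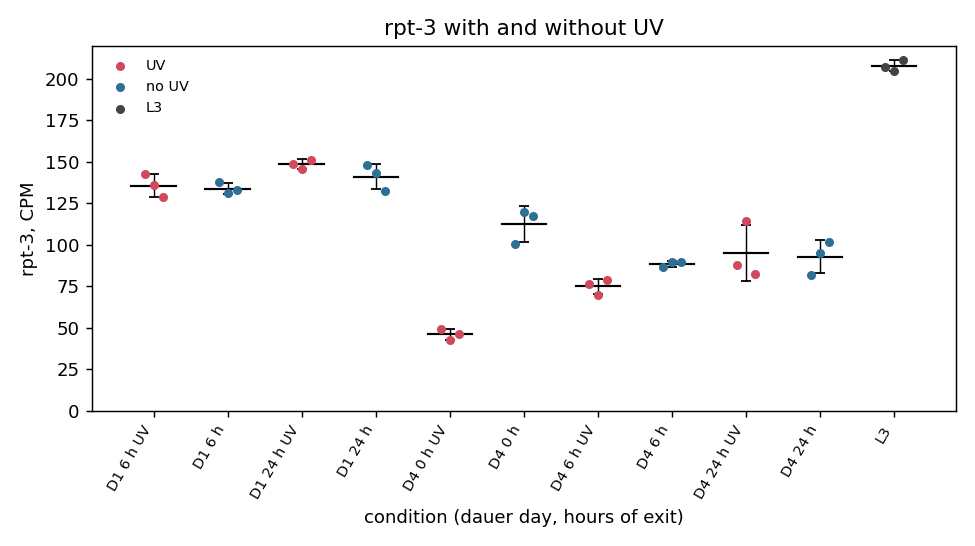
Level of rpt-3 (CPM, TMM scale) in each library with UV (red) and without UV (blue), for the 5 times that have both, and in L3 larvae (grey), with bars for the means and error bars of 1 SD. At D4 0 h the 3 UV libraries sit between 42.7 and 49.5 CPM and the 3 libraries without UV between 100.1 and 120 CPM, and at D4 24 h the groups overlap.

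The subunits did not vary as a single block. Over the 18 condition means, the correlation of log2 levels between 2 somatic subunits had a median of 0.66 over 496 pairs, with a range of -0.45 to 0.95 and 20 pairs below 0. These means share libraries and scaling, so the values are a description only. The subunit least like the others was pas-3, with a median correlation of 0.28, followed by pbs-1 at 0.35, and the most like the others was pas-5, at 0.81. The shares of the summed level over the 18 conditions ran from 33.26% to 38.9% for the core, from 34.7% to 38.6% for the base and from 26.0% to 29.5% for the lid. They were 36.7% core and 34.7% base in D4 0 h worms with UV, against 33.8% core and 38.6% base without. They were 35.1% core, 35.9% base and 28.95% lid in D30 dauers and 34.8% core, 36.9% base and 28.3% lid in D1 dauers, against 38.9% core, 35.1% base and 26.0% lid in L3 larvae.

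The paralogue rpn-6.2 (WBGene00010309, chromosome III, 8999817 to 9001999, minus strand) had low and uneven estimates. Its estimated count was 0 in 20 of 54 libraries and 5.6 to 171 in the other 34. All 3 libraries were at 0 in L3 larvae, in D4 worms at 24 h of exit and in UV-treated D4 worms at 0 h and at 6 h, 9 conditions had all 3 above 0, and 5 conditions mixed both. In D1 worms at 6 h, for example, the level was 9.04, 0 and 7.29 CPM. No fold change is therefore given for it. On the same strand, 50 bases away, lies F59B2.3 (WBGene00010308), and the 2 genes' levels were linked within conditions. In those 3 libraries F59B2.3 was at 69.1, 78.5 and 75.6 CPM, and the sum of the 2 genes at 78.1, 78.5 and 82.9 CPM. Across the 54 libraries, the deviations of the 2 genes from their condition means had a correlation of -0.73, the most negative of any of the 13646 genes set against rpn-6.2, and the next was -0.60. The median coefficient of variation between replicates was 4.97% for the sum and 9.401% for F59B2.3 alone. The calls for rpn-6.2 rest on these estimates: with UV it was at 0 in all 3 D4 0 h libraries, against 11.6, 13.3 and 11.6 CPM without, while the sum of the 2 genes was 54.6, 54.3 and 62.8 CPM with UV against 63.9, 65.4 and 64.98 CPM without. How reads were divided between these neighbours was not tested.

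**Figure D5:**
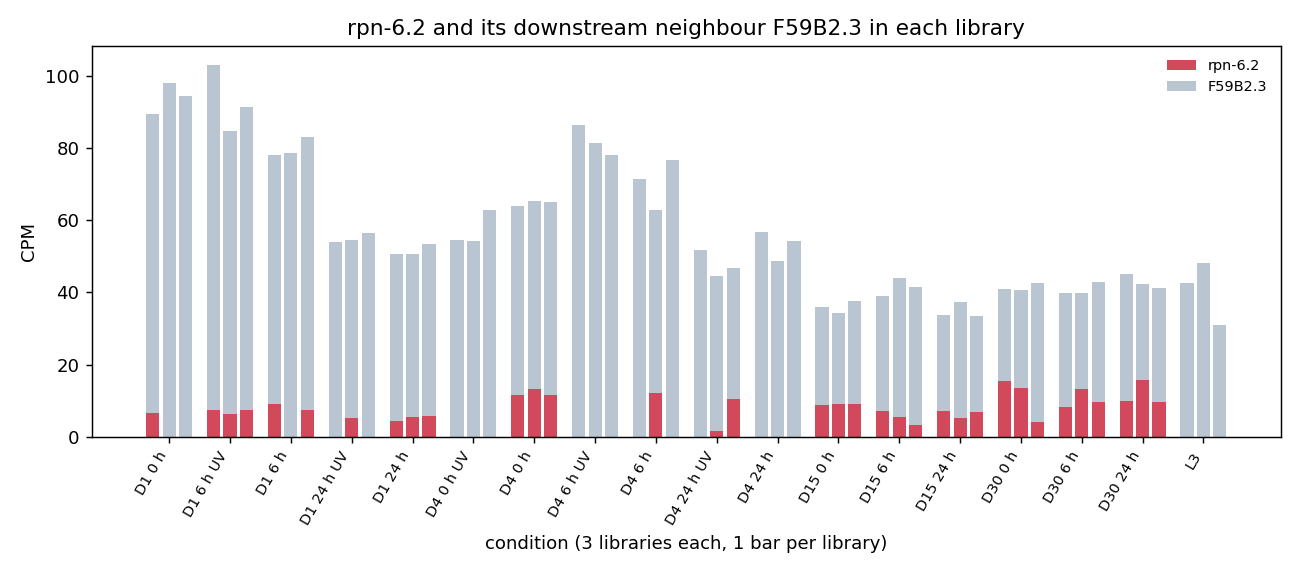
Stacked level of rpn-6.2 (red) and its neighbour F59B2.3 (grey) in each of the 54 libraries (CPM, TMM scale), with 3 bars for each condition. Within a condition the bars have like heights while the red part is present in some and absent in others, as in D1 at 6 h, where it is 9.04, 0 and 7.29 CPM.

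Lists of genes that work with the proteasome were counted beside it. Over dauer aging, 6 of 8 regulators and partners rose and 1 fell, 17 of 25 genes for ubiquitin and its E1 and E2 enzymes rose and 3 fell, 7 of 13 CDC-48 and shuttle factors rose and 0 fell, and 2 of 6 subunits of the COP9 signalosome, a relative of the lid, rose and 2 fell. Of all genes, 24.9% rose and 31.8% fell. The regulators included aip-1, a proteasome-associated factor (2.09, SE 0.14, adjusted p = 1.9e-07), and ddi-1, a protease that activates skn-1 (1.41). Among the ubiquitin genes were ubc-13 (1.63), ubc-3 (1.74) and the polyubiquitin gene ubq-1 (1.14), and among the shuttle factors ubxn-3 (1.87, SE 0.11, adjusted p = 9.0e-08) and ubql-1 (1.35). In D1 dauers against L3 larvae, the counts were 1 higher and 6 lower of 8 regulators, 6 and 10 of 24 ubiquitin genes, 0 and 7 of 13 shuttle factors and 0 and 2 of 6 signalosome subunits, where 38.7% of all genes were higher and 36.9% lower. Lower ones included the activator psme-3 (-1.80), ubh-4 (-1.54), ubq-2 (-1.64) and both genes of the CDC-48 segregase, cdc-48.1 (-1.31) and cdc-48.2 (-1.29). Over the 24 ubiquitin genes the log2 changes ran from -1.64 to 1.57, with a median of -0.12.

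On exit, the counts of regulators that rose and fell were 6 and 0 of 8 on D1, 3 and 0 on D4, 2 and 3 on D15 and 1 and 2 on D30. For the ubiquitin genes they were 10 and 4 of 24 on D1, 4 and 3 of 23 on D4, 2 and 9 of 25 on D15 and 0 and 10 of 25 on D30. For the CDC-48 and shuttle factors they were 7 and 1 of 13 on D1, 2 and 2 on D4, 1 and 4 on D15 and 2 and 5 on D30, and for the COP9 signalosome 2 and 0 of 6 on D1, 1 and 0 on D4, 1 and 2 on D15 and 3 and 2 on D30. The shares of all genes that rose and fell were 30.56% and 31.4% on D1, 22.6% and 21% on D4, 22.4% and 19.9% on D15 and 24.6% and 22.2% on D30. On D1 exit aip-1 (1.34), ddi-1 (1.01), ubq-2 (1.09) and cdc-48.1 (1.14) rose. On exit from D15 and D30, ubc-1 (-1.60 and -1.03) and uev-1 (-1.15 and -0.83) fell, and so did the shuttle factor rad-23 (-0.56 and -0.57), whereas psme-3 rose (0.69 and 0.78). With UV at D1 6 h, 3 of 8 regulators were higher and 1 lower, among them psme-3 (0.71), ubh-4 (0.47) and png-1 (-0.52), and 7 of 24 ubiquitin genes were higher and 2 lower, against 14.4% and 13.4% of all genes. With UV at D4 0 h, 1 of 8 regulators was higher and 0 lower, and 3 of 23 ubiquitin genes were higher and 2 lower. Of all genes, 18.1% were higher and 14.4% lower in that comparison. The higher ones included aip-1 (0.84), ubq-1 (0.53) and uba-1 (0.45), the E1 enzyme, and ubq-2 was lower (-0.31).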

How the data were processed

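RNA from whole daf-2(e1370) larvae was sequenced in 54 libraries. The authors trimmed reads with fastp (version not given in the sources used here), ran Salmon on the WBPS15 transcripts (genome sequence added as a decoy), and used tximport to obtain gene values, and the deposited values are estimated counts, not scaled for depth. Whether the library kit marks strand is not given in the sources used here. Here the estimated counts were rounded, a gene entered a fit if 3 or more of its libraries held 10 or more counts, and edgeR 4.0.16 (R 4.3.3) fitted quasi-likelihood models with TMM scaling. Dauer aging was the slope on day over 29 days (12 dauer libraries), and exit was the change per hour, scaled to 24 h (9 libraries a day). The D4 to D30 steps came from 1 fit of those 12 libraries, the comparisons of 24 h with L3 from 1 fit of 15, and the others from the libraries compared. Members, lists and tests were chosen with earlier results of these data known. In each comparison the called member with the smallest p per ring, base or lid and direction is given in full, and up to 3 called genes of each other list. Other members given with values, and rpn-2, rpt-2 and F59B2.3, were chosen after values were seen. Alternatives were RLE size factors, no filter, DESeq2 1.42.0, a replicate block, all libraries in 1 fit, library totals (added after seeing the data) and each library left out in turn. Scripts were tested on simulated data. Coordinates, lengths and overlaps are from the Ensembl annotation of WBcel235, release 115, which matched all 33 members. No sequence is shown, and a promoter motif search was not run.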

Additional observations from a re-analysis of the deposited data

Results flagged for a closer look

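The exit slopes of the 4 dauer days differed for all 33 members by edgeR's quasi-likelihood interaction test with Benjamini-Hochberg adjustment. The adjusted p was 6.7801e-14 for pas-3, 3.6273e-10 for pbs-6, 7.158e-10 for rpn-13 and 4.0425e-10 for rpn-7. Of all genes, 64.2% were called in the same test. When each library was left out in turn, pas-1 was called in 21 of 36 fits.

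The UV effect in D4 worms differed between 0 h, 6 h and 24 h of exit for 6 members by the same kind of test, against 22.8% of all genes. The adjusted p was 5.4513e-05 for rpt-3, 0.01021 for pas-5 and 0.017522 for rpn-6.1. For pas-5 the levels at 0 h were 109, 86.6 and 96.7 CPM with UV against 119, 123 and 131 CPM without, and at 24 h they were 128, 122 and 129 CPM with UV against 118, 126 and 124 CPM without. The groups did not overlap at 0 h and overlapped at 24 h.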

How the results depend on the processing

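Of 131 counts of called members under another setting, 122 stayed within 1.5 times the count reported and kept the direction of most calls. Under library totals, 23 members were called in D15 against D4 dauers and 9 on exit from D4, both with most calls in the other direction. With UV at D1 6 h, the count was 6 under library totals (3868 of all 13463 genes) and 7 with DESeq2 (2529 of all 18600 genes). On exit from D4, 21 members were called with all 54 libraries in 1 fit, 17 at 24 h against 0 h alone and 10 at 6 h alone, the last mostly lower. On exit from D1, 15 were called at 6 h alone. With all 54 libraries in 1 fit, 10 were called for UV at D4 0 h. The log2 change of rpn-6.1 in D4 against D1 dauers was 0.00015309 under library totals, and the ratio of the summed level in D30 dauers to that in L3 larvae was 1.1712. The causes were not tested. With 1 library left out, the count ran from 4 to 8 on exit from D4, from 5 to 11 for UV at D1 6 h and from 0 to 1 for UV at D1 24 h, and 230 of 234 such counts stayed within 1.5 times. Replicate numbers did not pair the samples, as correlations of same-numbered deviations ran from -0.205 to 0.126. With the replicate block, counts stayed within 1.5 times, with 31 in D1 dauers against L3, 24 over aging, 30, 5, 17 and 25 on exit from D1, D4, D15 and D30, 10 for UV at D1 6 h and 5 for UV at D4 0 h. Of 484 values of named members, 472 kept their direction and call, 11 lost the call and 1 reversed. Of 24 summed ratios, 11 moved by more than the spread between replicates. The UV-treated D4 0 h libraries held 670302 to 856794 estimated counts, and the part of that depth in the counts was not tested.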

Other observations

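The gene whose levels over the 18 conditions were most like those of pas-3, among 15234 genes compared by log2 of mean CPM plus 1, was chp-1 (WBGene00000502), with a correlation of 0.99. Its values were looked at after this was seen. It lies next to pas-3 on the same strand of chromosome I, at 5103581 to 5104911, with 198 bases between them. The level of chp-1 was 37.5 ± 2.0 CPM in D1 dauers, 63.5 ± 5.0 CPM in D4 dauers, 168 ± 11.5 CPM in D15 dauers, 281 ± 2.6 CPM in D30 dauers and 83.7 ± 4.3 CPM in L3 larvae (SD, n = 3 each). By edgeR's quasi-likelihood test it rose over dauer aging (log2 2.81, SE 0.26, adjusted p = 3.9e-06) and fell on exit from D15 (-1.13) and D30 (-0.82), where the values of pas-3 were 2.63, -1.33 and -0.81. The genes next most alike were cars-1, uev-1, kin-10 and T26E3.4, and these correlations share libraries and scaling. The relation of the 2 neighbours' transcripts was not tested.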
